A study of Mus musculus with 2 samples.

Results

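The CXC chemokines described here are 8 genes, Cxcl1, Cxcl2, Cxcl3, Cxcl9, Cxcl10, Cxcl14, Cxcl16 and Pf4, out of 54446 genes counted in mouse macrophages. They were taken by name, and their Ensembl IDs were paired with symbols through the GENCODE M21 annotation. The macrophages were grown from bone marrow of C57BL/6 mice and either received IL-36 gamma, an inflammatory cytokine related to interleukin-1, or were left untreated as the control. No further allele or agent is named for either group. There was 1 IL-36 gamma library, with 17267900 counts in genes, and 1 control library, with 17426367. The dose, the length of the exposure and the number of mice are not stated in the labels.

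With 1 library per group, differences could not be checked against replicates, and p-values were not computed. Ratios divide the IL-36 gamma level by the control level, both scaled with TMM factors (an edgeR estimate of relative library size). Each stands with an exact 95% Clopper-Pearson interval, written in parentheses, which covers counting error only. Copies made by PCR are not independent molecules, so the true error is larger. A gene was called measured at a mean count of at least 10, which 14379 genes reached, and the counting floor was 3 counts, or 0.177 CPM (counts per 1000000 scaled gene counts) in the IL-36 gamma library and 0.169 CPM in the control. Of the 8 chemokines 7 were measured. Cxcl9 was not, with 4 counts in the IL-36 gamma library and 3 in the control, where it was at the floor.

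Chemokines are small secreted proteins that direct the migration of leukocytes, and the CXC class carries a pair of conserved cysteines separated by another residue. Cxcl1, Cxcl2 and Cxcl3 carry the glutamate-leucine-arginine (ELR) motif before the first cysteine and recruit neutrophils through the receptor Cxcr2. Cxcl9 and Cxcl10 lack it, are induced by interferons and attract T and NK cells through Cxcr3. Pf4 is platelet factor 4, stored in platelet granules and also made by macrophages. Cxcl16 is made as a membrane-bound protein, is released by proteases of the ADAM family and binds Cxcr6. Cxcl14 is known mainly from epithelial and stromal tissue.

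The DNA just upstream of the genes is shown first, because Cxcl1, Cxcl2 and Cxcl3 have a like site there. Of these, only Cxcl3 had an interval that excludes a ratio of 1. The windows hold 220 bases, from base 250 to base 31 before the transcript start in RefSeq, build GRCm38.p6, 5′ to 3′ on the strand of the gene. Such windows were found for 7 of the 8 members, and Cxcl16 was not matched. Capitals mark matches, on either strand, to the classical NF-kB consensus, to the interferon-stimulated response element (ISRE; GAAA, any 2 bases, GAAA), to the STAT element TTCNNNGAA (GAS) and to the AP-1 element TGANTCA. The Cxcl1 window is chr5:90890995-90891214 (+), that of Cxcl2 chr5:90903649-90903868 (+) and that of Cxcl3 chr5:90785851-90786070 (+). The Cxcl10 window is chr5:92348920-92349139 (-) and that of Cxcl14 chr13:56296582-56296801 (-).
Cxcl1: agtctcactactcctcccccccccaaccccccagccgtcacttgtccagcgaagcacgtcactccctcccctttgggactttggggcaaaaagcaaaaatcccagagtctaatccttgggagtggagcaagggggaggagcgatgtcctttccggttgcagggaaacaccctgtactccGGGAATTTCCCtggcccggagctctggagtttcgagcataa
Cxcl2: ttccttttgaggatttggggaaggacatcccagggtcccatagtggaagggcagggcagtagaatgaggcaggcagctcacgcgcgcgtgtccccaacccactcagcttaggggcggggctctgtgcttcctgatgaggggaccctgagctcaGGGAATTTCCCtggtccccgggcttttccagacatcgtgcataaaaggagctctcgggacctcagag
Cxcl3: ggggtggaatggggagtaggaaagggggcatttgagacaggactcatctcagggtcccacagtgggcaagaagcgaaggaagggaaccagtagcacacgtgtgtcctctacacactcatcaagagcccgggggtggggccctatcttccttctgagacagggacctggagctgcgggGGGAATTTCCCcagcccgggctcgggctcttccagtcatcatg
Cxcl10: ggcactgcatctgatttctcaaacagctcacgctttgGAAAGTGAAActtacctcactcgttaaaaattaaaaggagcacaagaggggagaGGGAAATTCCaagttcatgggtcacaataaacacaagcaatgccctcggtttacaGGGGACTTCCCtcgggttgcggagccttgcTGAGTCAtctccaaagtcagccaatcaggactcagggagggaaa
Cxcl14: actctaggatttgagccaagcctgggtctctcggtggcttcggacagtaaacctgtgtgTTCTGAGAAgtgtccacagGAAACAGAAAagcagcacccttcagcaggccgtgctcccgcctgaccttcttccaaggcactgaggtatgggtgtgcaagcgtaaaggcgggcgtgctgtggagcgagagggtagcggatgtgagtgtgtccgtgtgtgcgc

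The same 11 bases, GGGAATTTCCC, match the NF-kB consensus on both strands in all 3 ELR genes. They begin 71 bases before the start of Cxcl1, 97 before that of Cxcl2 and 73 before that of Cxcl3. Cxcl10 holds 2 separate runs that match this consensus, beginning 159 and 104 bases before the start, with an ISRE 213 bases and an AP-1 match 74 bases before it. Cxcl14 holds an ISRE at 172 bases and a GAS match at 191 bases, and the windows of Cxcl9 and Pf4 hold none of the 4 motifs. No match overlaps a match to another motif. Of 32851 such windows in the RefSeq table, 6.34% hold the NF-kB consensus, 2.63% the ISRE, 6.27% the GAS and 6.12% the AP-1 motif. Aligned end to end, the windows of Cxcl2 and Cxcl3 were identical at 73.0% of aligned bases, those of Cxcl1 and Cxcl3 at 66.1% and those of Cxcl1 and Cxcl2 at 62.1%. The other 25 pairs among the windows of these genes and Ppbp ran from 46.1% to 64.9%. A match describes letters in a window and shows no binding.

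By counting error alone, the IL-36 gamma library held more Cxcl3 transcript and less Cxcl14 and Pf4 transcript than the control library. Cxcl1, Cxcl2, Cxcl10 and Cxcl16 had intervals that include a ratio of 1. Of the 7 measured chemokines 1 had an interval wholly above 1, which is 14.3%, against 20.2% of all measured genes. Intervals wholly below 1 were found for 2 of the 7, or 28.6%, against 16.5% of all measured genes. None of the 7 passed a rule of size, an interval wholly above 2 or wholly below 0.5, which 0.0765% and 0.0904% of all measured genes did. The median log2 ratio of the 7 was -0.17, and that of all measured genes 0.01. Summed over the 8 genes, the IL-36 gamma library held 9406 counts (556 CPM) and the control 11277 (635 CPM), a ratio of 0.875 (0.852 to 0.900). Without Pf4, the most abundant member, the summed ratio was 0.911 (0.877 to 0.946).

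**Figure D1:**
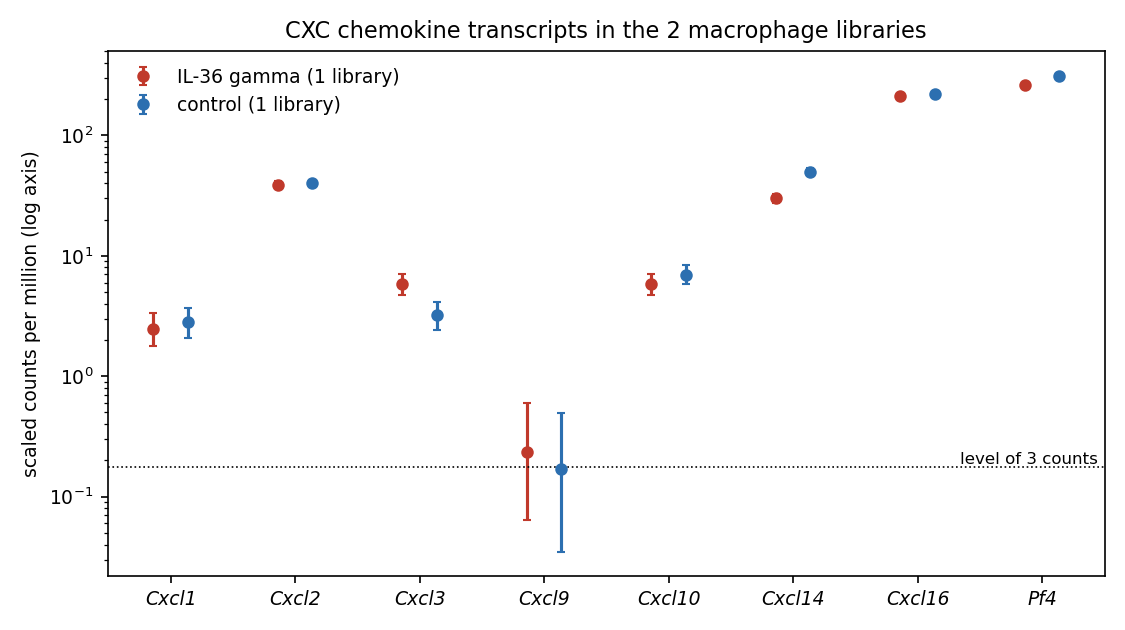
Scaled CPM of the 8 CXC chemokine genes (log axis) in the IL-36 gamma library (red) and the control library (blue), with exact 95% Poisson intervals as bars, and the level of 3 counts as a dotted line. Pf4 and Cxcl16 lie highest in both libraries, and Cxcl9 lies at the dotted line.

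**Figure D2:**
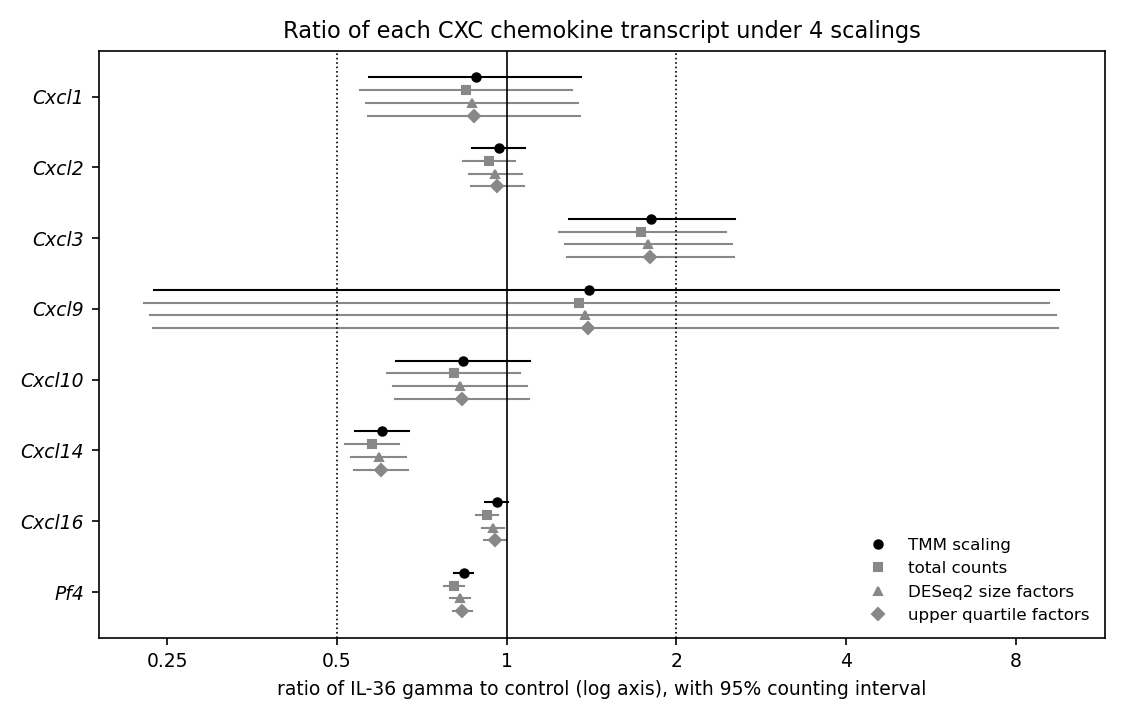
Ratio of IL-36 gamma to control (log axis) for each CXC chemokine, with 95% counting intervals, under TMM scaling (black) and 3 other scalings (grey), and with dotted lines at ratios of 0.5 and 2. Cxcl3 lies above 1 and Cxcl14 and Pf4 below 1 under each scaling, while the interval of Cxcl16 includes 1 under TMM only.

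Among the ELR chemokines only Cxcl3 differed between the libraries by more than counting error. Cxcl3 (ENSMUSG00000029379.10, chromosome 5, 90786103 to 90789600, mm10) had 98 counts in the IL-36 gamma library and 57 in the control, or 5.79 and 3.21 CPM. Its ratio was 1.80 (1.29 to 2.55), and 1.68% of measured genes had a higher one. Cxcl2 (ENSMUSG00000058427.10, chromosome 5, 90903871 to 90905938), the most abundant of these neutrophil attractants, had 654 counts with IL-36 gamma and 709 in the control. Its ratio was 0.968 (0.869 to 1.08), so that any rise above 1.08-fold lies outside its counting interval. Cxcl1 (ENSMUSG00000029380.11, chromosome 5, 90891241 to 90893115) had 42 and 50 counts in the IL-36 gamma and control libraries, a ratio of 0.882 (0.571 to 1.36). At this depth a change of Cxcl1 within those bounds was not detectable.

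The difference between Cxcl3 and its neighbours does not depend on the scaling, since it can be read from counts within each library. There were 6.67 counts of Cxcl2 for each count of Cxcl3 in the IL-36 gamma library and 12.4 in the control. The ratio of Cxcl2 over Cxcl3 was thus 0.537 times (0.374 to 0.765) that of the control, and the ratio of Cxcl1 over Cxcl3 0.490 times (0.280 to 0.854). Cxcl1 over Cxcl2 was 0.911 times (0.581 to 1.42), an interval that includes 1. Summed, the 3 ELR genes had 794 counts with IL-36 gamma and 816 in the control, a ratio of 1.02 (0.925 to 1.13). Scaling by total counts put this sum below 1, at 0.982. Cxcl2 and Cxcl3 have stretches of identical sequence, and 126 runs of 50 bases, 5.84% of those in Cxcl2 transcripts, also occur in Cxcl3 transcripts. Reads from such stretches may be left uncounted or placed on either gene, and the share of these reads was not measured.

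The ELR genes and Pf4 lie in a cluster on chromosome 5, which spans 147 kb from Cxcl5 to Cxcl2. In order along the chromosome, Cxcl5 (8 and 3 counts with IL-36 gamma and in the control) was below the measured level. Ppbp and Pf4 were lower with IL-36 gamma, and Cxcl3, the next gene, was higher. Cxcl15, after Cxcl3, had 0 counts in both libraries, and Cxcl1 and Cxcl2 at the other end had intervals that include 1. Adjacent genes of the cluster thus differed in direction. The 5 other genes annotated between Cxcl3 and the stretch just beyond Cxcl2 had 0 counts in both libraries.

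**Figure D3:**
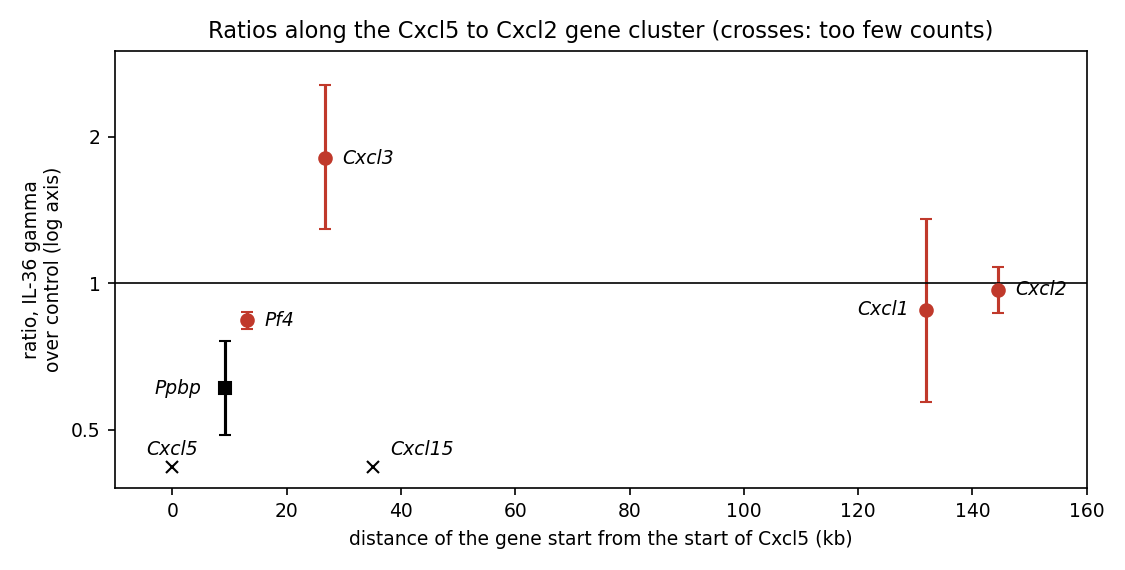
Ratio of IL-36 gamma to control (log axis) against the distance of each gene start from that of Cxcl5 in kb, with 95% counting intervals, for the members (red circles) and Ppbp (black square). Crosses at the bottom mark genes with too few counts for a ratio. Ppbp and Pf4 lie below 1, and Cxcl3, at 26.7 kb, lies above it.

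Pf4 was lower with IL-36 gamma and was the most abundant CXC chemokine in both libraries. Pf4 (ENSMUSG00000029373.7, chromosome 5, 90772435 to 90773383) had 4423 counts with IL-36 gamma and 5535 in the control, or 261 and 311 CPM. The ratio was 0.839 (0.806 to 0.873), narrow in its counting interval and small in size. Of all measured genes 19.1% had a lower ratio. Ppbp (ENSMUSG00000029372.7, chromosome 5, 90768518 to 90770063), the neighbouring gene, encodes pro-platelet basic protein, which is likewise stored in platelets. It had 130 counts with IL-36 gamma and 224 in the control, a ratio of 0.609 (0.487 to 0.759). Pf4 over Ppbp was 1.38 times (1.10 to 1.73) as high with IL-36 gamma as in the control, so that the ratio of Ppbp was the lower by more than counting error.

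Other genes of platelets and megakaryocytes were low in both libraries. Of 8 such markers 4 were measured, and Gp1bb and Gp6 had 0 counts in both libraries. Of the 2087 exonic bases of Gp1bb, 1938 are shared with another gene on its strand, and reads there may be left out as ambiguous. The 8 together amounted to 14.7 CPM with IL-36 gamma and 17.3 CPM in the control. Treml1, a receptor of platelet granules, had 156 counts with IL-36 gamma and 218 in the control, a ratio of 0.751 (0.608 to 0.927). The platelet receptor genes Clec1b (34 and 54 counts with IL-36 gamma and in the control, 0.417 to 1.03) and Gp1ba (29 and 20 counts, 0.832 to 2.84) had intervals that include 1, as did the integrin gene Itga2b (25 and 14 counts, 0.938 to 3.90). The median log2 ratio of the 4 measured markers was 0.08. The part of platelets or their precursors in the values of Pf4 and Ppbp was not tested. In bulk RNA, fewer cells of a type and less RNA per cell cannot be told apart.

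Cxcl14 had the lowest ratio of the 8. Cxcl14 (ENSMUSG00000021508.11, chromosome 13, 56288643 to 56296551) had 507 counts with IL-36 gamma and 885 in the control, or 29.9 CPM with IL-36 gamma and 49.8 CPM in the control. The ratio was 0.601 (0.538 to 0.671), and 3.86% of measured genes had a lower one. Relative to Cxcl2, a gene of like abundance, the difference was as plain, with 1.29 counts of Cxcl2 for each of Cxcl14 in the IL-36 gamma library and 0.801 in the control. The annotated neighbours of Cxcl14, Neurog1 and the pseudogene Gm17878, had 0 counts in both libraries. No exon of Cxcl14 overlaps an annotated exon on the other strand, and no run of 50 bases in its transcripts was found in another gene.

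Markers of the tissues in which Cxcl14 is best known had few counts in both libraries. The 7 fibroblast markers summed to 7.80 CPM with IL-36 gamma and 13.1 CPM in the control, with Lum and Pdgfra at 0 in both. Of 5 measured, 3 (60.0%) had an interval below 1, against 16.5% of all measured genes, and none above. They were the collagen genes Col1a1 (68 counts with IL-36 gamma and 104 in the control, 0.686), Col1a2 (21 and 60, 0.367) and Col3a1 (16 and 38, 0.442). Dcn, a matrix proteoglycan gene, had 12 counts in each library, and its interval (0.431 to 2.55) and that of the receptor gene Pdgfrb (0.392 to 1.72) include 1. The 5 epithelial markers summed to 14 counts with IL-36 gamma and 39 in the control, with Epcam and Krt5 at 0 in both and 1 of the 5, Cdh1, measured. Their part in the result was not tested.

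The interval of Cxcl10 included 1, while those of most other interferon-induced genes lay above it. Cxcl10 (ENSMUSG00000034855.13, chromosome 5, 92346638 to 92348889) had 99 counts with IL-36 gamma and 124 in the control, or 5.85 and 6.98 CPM, a ratio of 0.838 (0.637 to 1.10). Of 17 measured interferon-induced genes outside the family, 15 (88.2%) had an interval above 1, against 20.2% of all measured genes, and 1, Mx1, below it, and the median log2 ratio was 0.49. In 14 of the 17 the whole interval lay above that of Cxcl10, a count whose share over all measured genes was not computed. By ratio alone 15 of the 17 were above Cxcl10, against 81.0% of all measured genes. Among the 14 were the ubiquitin-like modifier gene Isg15 (535 counts with IL-36 gamma and 340 in the control, 1.65), Ifit2 (1959 and 1518, 1.35) and the membrane tether gene Bst2 (9805 and 6986, 1.47). Cxcl9 (ENSMUSG00000029417.9, chromosome 5, 92321347 to 92328079) had a ratio of 1.40 on its few counts, with an interval of 0.237 to 9.55, and no direction can be read from it. Of the exonic bases of Cxcl10, 133 of 2252 overlap exons of Art3 on the other strand. Art3 had 12 counts with IL-36 gamma and 5 in the control.

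The listed genes that receive and pass on interferon signals were present. Of the interferon ligands only Ifnb1 and Ifng were listed, and other interferon genes were not examined. Ifnb1 and Ifng had 0 counts in both libraries, where the floor of 3 counts stands at 0.177 CPM with IL-36 gamma and 0.169 CPM in the control. Of 14 measured receptor and transducer genes, 6 (42.9%) had an interval above 1 and 3 (21.4%) below it, against 20.2% and 16.5% of all measured genes. Irf7, an amplifier of type I interferon responses, had 5682 counts with IL-36 gamma and 2889 in the control, a ratio of 2.06 (1.97 to 2.16), and Ifngr1, a chain of the interferon gamma receptor, one of 0.881 (0.835 to 0.930).

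Cxcl16 was close to the control level. Cxcl16 (ENSMUSG00000018920.11, chromosome 11, 70453983 to 70459984) had 3579 counts with IL-36 gamma and 3914 in the control, or 211 and 220 CPM, a ratio of 0.960 (0.917 to 1.005). The upper bound is just above 1 under TMM, and each other scaling put the whole interval below 1, with ratios down to 0.923. Of its 3021 exonic bases, 552 overlap exons of Zmynd15 on the opposite strand, and the strand setting of the counting is not given, so reads in that stretch cannot be assigned. Zmynd15 had 1481 counts with IL-36 gamma and 1857 in the control, a ratio of 0.837 (0.781 to 0.897). Med11, on the other side, had 310 counts with IL-36 gamma and 272 in the control, a ratio of 1.20 (1.01 to 1.41).

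Genes for proteins that release, cut or hold CXC chemokines were mostly lower with IL-36 gamma. Of 10 measured of 12 listed, 6 (60.0%) had an interval below 1, against 16.5% of all measured genes, and 1 above, with a median log2 ratio of -0.12. Adam17, a sheddase that can release membrane proteins, had 3732 counts with IL-36 gamma and 4046 in the control, a ratio of 0.968 (0.926 to 1.01). Adam10, a sheddase known to release Cxcl16, had 2586 counts with IL-36 gamma and 2974 in the control, a ratio of 0.913 (0.865 to 0.962). The hyaluronan receptor gene Cd44 had a ratio of 0.926 (0.886 to 0.967). The proteoglycan gene Sdc1, whose heparan sulphate chains bind chemokines, had 742 counts with IL-36 gamma and 1078 in the control, a ratio of 0.722 (0.657 to 0.794). The metalloprotease genes Mmp12 (ratio 0.409), which passed the rule of size, and Mmp8 (0.663) encode enzymes that cut ELR chemokines. Serglycin, whose gene Srgn was the member above 1, with a ratio of 1.17 (1.08 to 1.27), is the granule proteoglycan that holds Pf4 in platelets.

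Per kilobase of the longest annotated protein-coding transcript, Pf4 took most of the family signal in both libraries. Its level was 444 CPM per kilobase with IL-36 gamma (431 to 458, exact Poisson interval) and 530 in the control (516 to 544). This was 77.6% of the sum of the 8 levels with IL-36 gamma and 78.9% in the control. Cxcl16 came next, at 78.3 CPM per kilobase with IL-36 gamma and 81.6 in the control. Below it the order differed between the libraries. Cxcl2, at 20.8 CPM per kilobase (19.2 to 22.4), stood above Cxcl14, at 16.4 (15.0 to 17.9), with IL-36 gamma. In the control Cxcl14, at 27.3 (25.5 to 29.1), stood above Cxcl2, at 21.5 (19.9 to 23.1), and the intervals of this pair do not overlap in either library.

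The lower part of the order rests on few counts. With IL-36 gamma, Cxcl3 stood at 5.70 CPM per kilobase (4.62 to 6.94), Cxcl10 at 4.32 (3.51 to 5.26) and Cxcl1 at 2.60 (1.88 to 3.52). In the control, Cxcl10 stood at 5.16 (4.29 to 6.15), Cxcl3 at 3.16 (2.39 to 4.09) and Cxcl1 at 2.95 (2.19 to 3.89). The intervals of the neighbours Cxcl3 and Cxcl10, and those of Cxcl10 and Cxcl1, overlapped with IL-36 gamma, and those of Cxcl3 and Cxcl1 overlapped in the control. Cxcl9 was lowest, at 0.0818 CPM per kilobase with IL-36 gamma and 0.0584 in the control. The place of Cxcl3 depends on the length used. Its annotated exons cover 3498 bases, against 1016 in the longest protein-coding transcript. Per kilobase of exon it stood at 1.65 CPM with IL-36 gamma and 0.917 in the control, under Cxcl10 in both. For Cxcl1, Cxcl2, Cxcl3 and Cxcl10 the annotated exons cover the whole gene. Reads from introns of the coding transcript may thus be among their counts, and the share of such reads was not measured.

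Across the 21 pairs of measured members, 12 had a ratio of ratios whose interval excluded 1, with no adjustment over pairs. Pairs that share a member are not independent, and the share among pairs of other measured genes was not computed. The count thus cannot be read as a trait of the family. Cxcl3 was higher relative to each of the other 6, with ratios of ratios of 2.15 over Pf4 (1.53 to 3.04) and 1.88 over Cxcl16 (1.34 to 2.66). Cxcl3 over Cxcl14 had the largest value, 2.999 (2.10 to 4.31). Cxcl16 over Pf4 was 1.14 times (1.08 to 1.22) as high with IL-36 gamma as in the control. Cxcl10 over Pf4 was 0.999 times the control value, with an interval of 0.757 to 1.32.

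**Figure D4:**
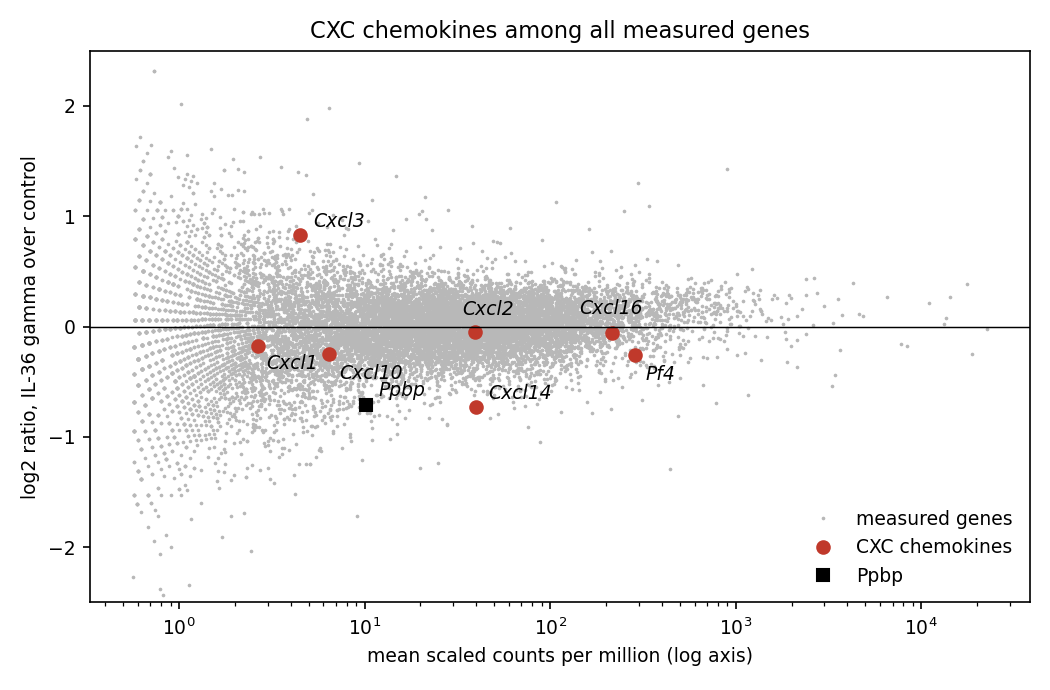
Log2 ratio of IL-36 gamma over control (prior count 2) against mean scaled CPM (log axis) for measured genes (grey), 7 CXC chemokines (red) and Ppbp (black square); 1 gene lies beyond the vertical axis. Cxcl3 lies near the upper edge and Cxcl14 near the lower edge of genes of like level, and the other members lie within the main band.

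The remaining CXC ligands were mostly too low to measure. Besides Ppbp and Cxcl5, Cxcl12, the ligand of Cxcr4, had 3 counts in each library. Cxcl13, which attracts B cells, and Cxcl17 had 1 count each with IL-36 gamma and 0 in the control. Cxcl11, annotated as a polymorphic pseudogene, and Cxcl15 had 0 counts in both.

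Among the receptor genes Cxcr4 had the most counts, 536 with IL-36 gamma and 639 in the control, a ratio of 0.880 (0.783 to 0.989). Cxcr3, the receptor for Cxcl9 and Cxcl10, had 100 counts with IL-36 gamma and 93 in the control, a ratio of 1.13 (0.842 to 1.51). Cxcr2, the receptor for the ELR ligands, had 21 counts with IL-36 gamma and 13 in the control, a ratio of 1.70 (0.810 to 3.69). Cxcr6 (7 and 3 counts with IL-36 gamma and in the control), Cxcr5 (4 and 5), the scavenging receptor Ackr3 (3 and 1) and Cxcr1 (1 and 0) were not measured. Ackr1 had 0 counts in both libraries.

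Transcripts of the pathway from the IL-36 receptor to NF-kB had calls in both directions. All 18 listed genes were measured, 2 (11.1%) with an interval above 1 and 3 (16.7%) below, against 20.2% and 16.5% of all measured genes, and the median log2 ratio was -0.02. The adaptor gene Myd88 had 1776 counts with IL-36 gamma and 1600 in the control, a ratio of 1.17 (1.09 to 1.25), the kinase gene Ikbkb one of 0.888 (0.833 to 0.946) and Nfkb1 one of 1.01 (0.952 to 1.07). Of 15 measured genes among other known NF-kB targets, 9 (60.0%) had an interval above 1 and 1 (6.67%) below, against 20.2% and 16.5% of all measured genes, and the median log2 ratio was 0.19. The inhibitor gene Nfkbia, which is a target of the pathway it restrains, had 4304 counts with IL-36 gamma and 3819 in the control, a ratio of 1.18 (1.13 to 1.24). The CC chemokine genes Ccl3 (1.30) and Ccl4 (1.32) and the NF-kB cofactor gene Bcl3 (1.35) had the intervals farthest above 1, and the feedback inhibitor gene Tnfaip3 (0.820) was below 1. In 7 of the 15 the whole interval lay above that of Cxcl2, whereas none lay wholly above that of Cxcl1, which is wide. The share of all measured genes with such intervals was not computed. By ratio alone 12 of the 15 were above Cxcl2, against 58.4% of all measured genes, and 13 above Cxcl1, against 74.8%. None of the 15 had a ratio as high as that of Cxcl3, which only 1.68% of all measured genes exceeded. In 8 of the 15 the whole interval lay below that of Cxcl3, and the others overlapped it. The share of all measured genes below it in this way was not computed either.

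ELR chemokine transcripts carry AU-rich elements and are destroyed or spared by proteins that bind them. Of 14 measured genes of this control, 3 (21.4%) had an interval above 1 and 5 (35.7%) below, against 20.2% and 16.5% of all measured genes, with a median log2 ratio of -0.06. Zfp36, whose product tristetraprolin speeds the decay of Cxcl1 transcripts, had 2973 counts with IL-36 gamma and 2732 in the control, a ratio of 1.14 (1.08 to 1.20). The RNase gene Zc3h12a had a ratio of 1.16 (1.09 to 1.24) and the kinase gene Mapkapk2, which restrains tristetraprolin, one of 1.22 (1.17 to 1.27). The relatives of Zfp36 were lower, Zfp36l1 at 0.785 (0.739 to 0.835) and Zfp36l2 at 0.809 (0.778 to 0.841), as was the RNA-binding protein gene Tia1 at 0.696 (0.593 to 0.816).

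**Figure D5:**
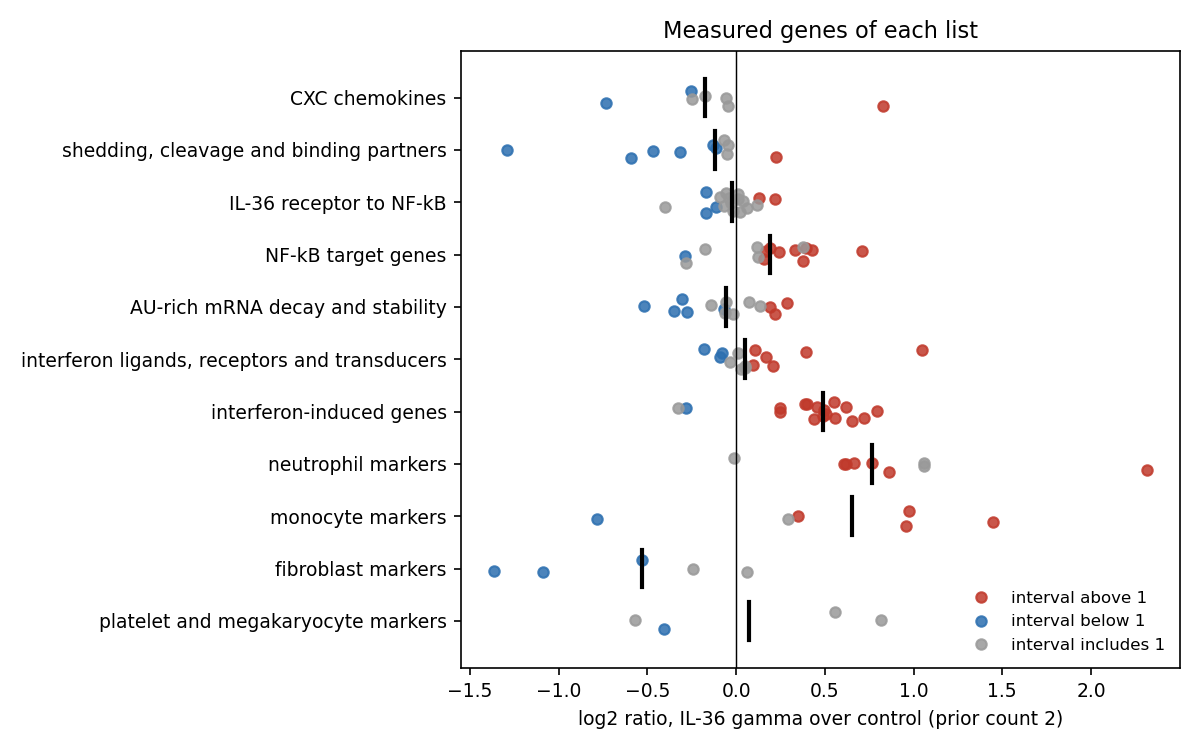
Log2 ratio of IL-36 gamma over control for each measured gene of the CXC chemokines and 10 other lists, coloured by whether the 95% counting interval lies above 1 (red), below 1 (blue) or includes 1 (grey), with the median as a bar. The medians of the interferon-induced genes (0.49) and neutrophil markers (0.77) lie right of 0, and that of the CXC chemokines (-0.17) lies left of it.

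The cells carried macrophage markers in both libraries, with all 8 listed genes measured and a median log2 ratio of -0.02. Of the 8, 3 had an interval above 1 and 4 below, against 20.2% and 16.5% of all measured genes. The median near 0 thus joins calls in both directions. Adgre1, the F4/80 antigen, had 53682 counts with IL-36 gamma and 49439 in the control, a ratio of 1.14 (1.13 to 1.15). Csf1r, at 0.809 (0.795 to 0.824), and Mertk, at 0.786 (0.748 to 0.825), were among the 4 below 1. Markers of neutrophils, which respond to ELR chemokines through Cxcr2, summed to 364 CPM with IL-36 gamma and 274 CPM in the control. Of 9 measured, 6 (66.7%) had an interval above 1, against 20.2% of all measured genes, and none below. The protease gene Elane, which passed the rule of size, had 22 counts with IL-36 gamma and 3, the floor, in the control. Monocyte markers summed to 190 CPM with IL-36 gamma and 253 CPM in the control. Of 6 measured, 4 (66.7%) had an interval above 1 and 1 (16.7%) below, against 20.2% and 16.5% of all measured genes. The 1 below was F13a1, a coagulation factor subunit gene, with 2094 counts with IL-36 gamma and 3782 in the control. The dendritic cell list summed to 34.2 CPM with IL-36 gamma and 47.3 CPM in the control, 2 genes being measured. Of these, 1 had an interval above 1 and 1 below, against 20.2% and 16.5% of all measured genes. Batf3 had a ratio of 1.34 (1.10 to 1.64) and Itgax one of 0.541 (0.473 to 0.619). With no count filter, 2 genes of the dendritic cell list had an interval above 1 and 1 below. Among T and NK cell markers Cd3e, Cd8a, Ncr1 and Nkg7 had 0 counts in both libraries, and only Cd4 was measured, with 128 counts with IL-36 gamma and 232 in the control. Among the 5 B cell markers only Cd79b was measured, with 490 counts with IL-36 gamma and 384 in the control. The 5 together summed to 496 counts with IL-36 gamma and 406 in the control. Without the count filter, 1 of them had an interval above 1 and 1 below. The part of other cell types in the chemokine values was not tested.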

How the data were processed

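The authors deposited raw counts per Ensembl gene for 2 libraries, not normalized. The submitters' processing notes list mm10 as the build, HTSeq, STAR 2.5.0a, FastQC 0.11.8 and Trim Galore 0.6.1. They give neither the annotation release nor the strand setting. The 5 counter rows that name no gene, 55.1% of all counts in the IL-36 gamma library and 55.6% in the control, were left out.

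Of 54446 gene IDs, 54409 matched GENCODE M21 without the version number. Counts were scaled with TMM factors of edgeR 4.0.16 (0.981 for IL-36 gamma and 1.02 for the control) in R 4.3.3. No edgeR or DESeq2 test was run, since 1 library per group leaves no residual spread. Ratios and intervals came from Python 3.11.15 with scipy 1.17.1, and the calculation was tested on simulated Poisson counts. Those hold counting error only, so the test cannot show how well the intervals cover the error in these libraries. Log2 ratios used a prior count of 2. Ratios of ratios are conditional odds ratios with exact intervals, a comparison chosen after values were seen. Windows were aligned with Biopython 1.88.

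The members and the 17 gene lists were chosen with earlier results of these data known. Named list genes are all other CXC ligands and receptors and, elsewhere, members past the rule of size, the 3 most abundant and the 3 farthest from 1 in each direction. Genes next to the members are named too, though not every such gene is printed. Adam10, Itga2b, Dcn, Pdgfrb, genes at 0 counts, the motifs and the runs of 50 bases were chosen after values were seen. Alternatives were other scalings (total counts, upper quartile, DESeq2 1.42.0 size factors), count filters, interval levels, fold bounds, prior counts and lowess trends.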

Additional observations from a re-analysis of the deposited data

How the results depend on the processing

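Of 48 alternative values of the 8 member ratios, 43 kept their direction and their side of a ratio of 1. The other 5 were those of Cxcl16, whose interval includes 1 under TMM at 0.960 and lay wholly below 1 with total counts (0.923), DESeq2 size factors (0.946), upper quartile factors (0.955), an expression trend removed (0.913) or an exon length trend removed (0.916). Over all settings the ratio ran from 1.74 to 1.87 for Cxcl3, from 0.556 to 0.601 for Cxcl14 and from 0.790 to 0.839 for Pf4. With the 3 other scalings 3 members lay below 1 in place of 2. Counts for the gene lists shifted too. With total counts the pathway from the IL-36 receptor to NF-kB had 1 gene above 1 and 6 below, in place of 2 and 3. The genes that release, cut or hold CXC chemokines then had 9 below 1 in place of 6. Of all measured genes 14.4% were then above 1 and 22.4% below, in place of 20.2% and 16.5%. The sum of the ELR genes was 1.02 with TMM and 0.982 with total counts. No member passed the rule of size under any scaling, filter, interval level or fold bound tried. The cause of these shifts was not tested, beyond the change that each scaling makes to the median log2 ratio of all measured genes, which was 0.01 with TMM and -0.05 with total counts. No paired analysis was possible because each group has 1 library, and for the same reason no library could be left out. Depth limits Cxcl9, Cxcl1 and most other CXC ligands and receptors.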
